A study of Mus musculus with 2 samples.

Results

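Isolated narrow peaks of histone H3 lysine 4 trimethylation (H3K4me3) inside protein-coding genes were described in 1 chromatin immunoprecipitation library from sorted NOS1+ neurons of the mouse small intestine. They were chosen by 4 conditions. A peak was under 300 bp wide, overlapped a protein-coding gene model, lay more than 1 kb from every end of any annotated gene model, and had no other peak within 1 kb. Of the 29924 peaks in the authors' deposited list, 1091 met all 4 (3.65%, exact 95% interval 3.44 to 3.86%). The series holds 1 H3K4me3 immunoprecipitate and 1 input chromatin library of the same neurons, and the input's own reads were not analysed here. NOS1, the neuronal nitric oxide synthase, marks the inhibitory motor neurons of the gut wall. The labels give no strain, age, sex, genotype or number of animals for these neurons, and no treatment. With 1 library there was no replicate, so no test was made, and the 95% intervals below cover counting error only. Read depth is unknown, because the list holds no counts.

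H3K4me3 is written by the SET1 and MLL methyltransferase complexes and is densest just downstream of active transcription start sites. CpG-rich promoters bind the CXXC-domain subunits of these complexes and carry broad, strong domains. Weaker H3K4me3 is also found at secondary start sites within genes and at some active enhancers, which mainly carry the monomethylated form. Peaks far from any gene end are therefore of interest as places where the mark lies apart from the canonical promoter.

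The label of the sort was checked on defining markers, by whether a peak lay within 1 kb of an end of the gene. Of 7 enteric neuron markers 6 had such a peak, the exception being Nos1, and of 3 leukocyte markers 0 did. Peaks also lay at 3 of 4 glial markers, 3 of 3 smooth muscle markers, 3 of 3 epithelial markers, 1 of 3 interstitial cell markers and 1 of 3 endothelial markers. In the longer gene lists the counts were 11 of 16 for nitrergic genes, 24 of 24 for enteric neuron regulators and 17 of 21 for pan-neuronal genes. For genes of other enteric neuron classes the count was 6 of 24. The counts were 13 of 15 for glia, 15 of 15 for smooth muscle and 12 of 15 for interstitial cells and fibroblasts. For epithelium they were 9 of 20, for endothelium 7 of 15 and for leukocytes 7 of 17, against 13431 of all 21887 genes. The part of such other cells in the isolated peaks was not tested.

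Where an isolated narrow peak fell on an annotated start site inside a gene, the RefSeq promoter window of that start shows the sequence under it. Annotated starts inside protein-coding models and more than 1 kb from every gene end numbered 3549. Of them, 1564 lay under a peak of at least 300 bp, where no isolated narrow peak can lie. An isolated narrow peak covered 18 of the 3549 (0.507%), in 17 genes. The 5 of these with the highest peak scores and 3 of those whose whole peak lay in the window are printed as examples. BC016579, with a score of 3.17 and 12 CpG dinucleotides, also had its whole peak in the window and is not printed. The printed windows were chosen after their values were seen. Each runs 5′ to 3′ on the strand of the gene, from 250 bases before the start to 50 after it (GRCm38.p6, the assembly of mm10), and capitals mark the bases that lie within the peak.
Arhgef3 (chr14:27237760-27238059, plus strand): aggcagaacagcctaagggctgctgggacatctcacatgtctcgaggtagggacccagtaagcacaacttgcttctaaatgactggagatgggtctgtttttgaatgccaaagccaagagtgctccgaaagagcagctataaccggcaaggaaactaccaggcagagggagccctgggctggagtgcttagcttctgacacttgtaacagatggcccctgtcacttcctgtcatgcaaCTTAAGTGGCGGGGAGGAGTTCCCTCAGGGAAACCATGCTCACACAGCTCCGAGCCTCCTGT
Jhy (chr9:40964069-40964368, minus strand): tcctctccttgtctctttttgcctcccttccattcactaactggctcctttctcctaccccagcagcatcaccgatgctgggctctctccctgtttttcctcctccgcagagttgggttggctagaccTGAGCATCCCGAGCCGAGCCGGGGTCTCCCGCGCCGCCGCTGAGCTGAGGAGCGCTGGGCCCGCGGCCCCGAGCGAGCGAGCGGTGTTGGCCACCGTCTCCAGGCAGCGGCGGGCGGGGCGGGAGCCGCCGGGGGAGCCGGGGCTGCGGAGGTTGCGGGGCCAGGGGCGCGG
Ankrd6 (chr4:32923456-32923755, minus strand): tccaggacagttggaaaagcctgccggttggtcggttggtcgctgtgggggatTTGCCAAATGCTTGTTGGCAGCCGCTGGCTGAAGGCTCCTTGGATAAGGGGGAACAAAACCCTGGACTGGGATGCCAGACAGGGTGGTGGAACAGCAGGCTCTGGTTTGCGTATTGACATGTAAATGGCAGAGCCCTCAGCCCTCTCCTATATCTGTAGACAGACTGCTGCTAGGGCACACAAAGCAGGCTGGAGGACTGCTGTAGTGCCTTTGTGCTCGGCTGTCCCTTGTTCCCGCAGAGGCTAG
Esr1 (chr10:4709908-4710207, plus strand): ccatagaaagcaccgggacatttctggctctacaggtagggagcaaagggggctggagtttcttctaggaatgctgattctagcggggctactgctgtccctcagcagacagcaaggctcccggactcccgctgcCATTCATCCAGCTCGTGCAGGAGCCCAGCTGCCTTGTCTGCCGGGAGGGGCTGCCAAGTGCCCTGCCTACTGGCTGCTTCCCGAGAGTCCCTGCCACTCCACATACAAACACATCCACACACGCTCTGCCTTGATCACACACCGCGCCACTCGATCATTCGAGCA
Zfp385b (chr2:77703223-77703522, minus strand): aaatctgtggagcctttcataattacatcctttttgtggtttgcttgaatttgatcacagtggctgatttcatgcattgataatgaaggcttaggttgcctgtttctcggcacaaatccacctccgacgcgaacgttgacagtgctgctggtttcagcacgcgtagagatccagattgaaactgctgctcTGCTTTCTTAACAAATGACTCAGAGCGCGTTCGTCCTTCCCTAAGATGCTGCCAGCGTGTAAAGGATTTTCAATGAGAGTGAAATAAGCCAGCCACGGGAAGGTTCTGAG
Ppfia4 (chr1:134332879-134333178, minus strand): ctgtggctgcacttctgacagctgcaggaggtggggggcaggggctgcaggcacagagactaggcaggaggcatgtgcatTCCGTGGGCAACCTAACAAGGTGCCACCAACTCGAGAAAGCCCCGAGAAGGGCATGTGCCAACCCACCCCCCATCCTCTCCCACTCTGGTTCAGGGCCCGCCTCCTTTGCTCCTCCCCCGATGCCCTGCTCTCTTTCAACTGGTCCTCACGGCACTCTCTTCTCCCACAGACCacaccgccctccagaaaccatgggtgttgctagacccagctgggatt
Dgka (chr10:128737563-128737862, minus strand): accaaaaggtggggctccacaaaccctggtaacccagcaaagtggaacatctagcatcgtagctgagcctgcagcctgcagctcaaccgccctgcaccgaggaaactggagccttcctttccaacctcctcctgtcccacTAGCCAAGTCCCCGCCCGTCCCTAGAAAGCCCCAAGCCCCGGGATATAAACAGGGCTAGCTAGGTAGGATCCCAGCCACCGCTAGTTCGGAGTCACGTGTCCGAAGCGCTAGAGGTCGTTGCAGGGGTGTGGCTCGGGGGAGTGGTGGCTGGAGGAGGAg
Trak1 (chr9:121366708-121367007, plus strand): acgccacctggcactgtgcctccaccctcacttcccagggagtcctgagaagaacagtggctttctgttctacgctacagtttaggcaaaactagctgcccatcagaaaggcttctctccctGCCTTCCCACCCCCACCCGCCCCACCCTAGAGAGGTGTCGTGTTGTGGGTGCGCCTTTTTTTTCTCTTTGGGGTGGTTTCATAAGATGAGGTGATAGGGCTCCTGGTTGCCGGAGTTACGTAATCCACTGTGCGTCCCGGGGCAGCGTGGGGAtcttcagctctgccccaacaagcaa

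These windows differed in base composition. Arhgef3, a guanine nucleotide exchange factor for small GTPases, had the highest score of the 18 (20.99), on a window with only 5 CpG dinucleotides. Jhy, a gene named for juvenile hydrocephalus, had a score of 18.17 on a window with 28 CpG and 70.0% G+C, the most of both among the 18. Ankrd6, which encodes the Wnt pathway protein diversin, had a score of 15.13, with 247 of the 300 bases inside the peak and 7 CpG. Esr1, the gene of oestrogen receptor alpha, and Zfp385b, a zinc finger gene, each had a score of 10.43 and 12 CpG. Ppfia4 (liprin-alpha-4, a presynaptic scaffold protein), Dgka (diacylglycerol kinase alpha) and Trak1 (a kinesin adaptor for mitochondria) had scores of 3.41, 6.36 and 4.93, with 7, 13 and 10 CpG. Score and CpG number thus did not follow each other in these examples.

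Over all 18 starts the window held a median of 7 CpG (5 to 28) and 58.3% G+C. The 1564 interior starts covered by a peak of at least 300 bp had a median of 20 CpG and 62.0% G+C, and the 1937 starts with no peak had 4 CpG and 49.3%. The median of 7 CpG equals that of all 3549 interior starts and of all promoter windows. The median G+C content of all interior starts was 54.3%. The GC box GGGCGG, read on both strands, stood in 7 of the 18 windows (38.9%), against 63.2% of the windows under peaks of at least 300 bp and 35.7% of all 32851 promoter windows. TATAAA stood in 3 of the 18 (16.7%, against 13.6% of all windows), and CCAAT in 2 (11.1%, against 37.4%). The windows with TATAAA were that of Dgka and 2 overlapping ones of Mlip under the same peak, so the Mlip site was counted more than once. All 3 motifs were searched on both strands, each on its own, and overlaps between them were not removed.

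Annotated start sites lay at few of the isolated peaks. Outside chromosome 18, which has no promoter windows in the table used, 17 of 1051 covered an interior start (1.62%, exact interval 0.945 to 2.58%) and 80 lay within 1 kb of one (7.61%, 6.08 to 9.38%). By base, 0.345% of the gene interior in which such a peak could lie was within 1 kb of an interior start. Among peaks of at least 300 bp inside genes, 983 of 4164 covered an interior start (23.6%, 22.3 to 24.9%) and 31.0% lay within 1 kb. Over all chromosomes the median width of such peaks was 659 bp, against 195 bp for the isolated ones. Peaks of at least 300 bp covered 1564 of the 3549 interior starts, and the choice of members bars them from those places and from 1 kb around them. The parts of this rule and of width in the difference were not tested. The 2818 narrow interior peaks that did have a neighbour within 1 kb resembled the isolated ones, with 0.887% on a start and 7.95% within 1 kb. Starts that the table lacks are not counted.

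The widths and scores, which the choice of members used in part, are given as a description. The middle width was 195 bp, with quartiles at 162 and 236.5 bp, and 188 of the 1091 (17.2%) were at 153 bp, the smallest width in the list. The authors' score, whose scale is not given in the sources used here, had a median of 6.89 and ran from 2.39 to 69.1, against a median of 35.7 over all peaks. Scores repeated at fixed values, and 5.29 was the median at 153 bp, 6.86 from 154 to 199 bp, 8.10 from 200 to 249 bp and 8.35 from 250 to 299 bp. Of the 1091, 235 (21.5%) had a score of at least 10 and 51 (4.67%) of at least 20. Just inside the width limit lay peaks of 299 bp in Lrp1, Prdm13 and Nfib, with scores of 5.80, 8.10 and 10.61. Just outside lay peaks of 300 bp in Unc79, Efna5 and Zfhx3, with scores of 5.74, 6.28 and 3.87. At the 1 kb limit to gene ends, Efna3 (1018 bp), Plekhg6 (1029 bp) and Osr1 (1034 bp) were in, and Cyp4f37 (987 bp) and Tbx21 (939 bp) were out. At the limit to the next peak, Itpka (1005 bp) and 2 peaks of Ctnnd1 (1007 bp) were in, and Bnip3 (993 bp), Elmo2 (992 bp) and Hunk (991 bp) were out.

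**Figure D1:**
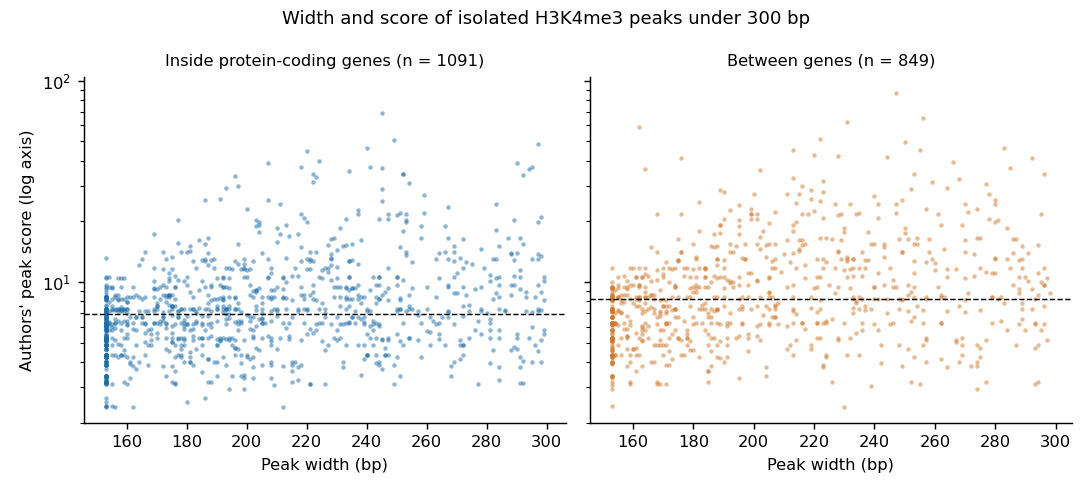
Width (bp) against the authors' score (log axis) for each isolated peak under 300 bp, inside protein-coding genes (left, 1091 peaks) and between genes (right, 849 peaks), with the median score as a dashed line. Both panels show the column of peaks at 153 bp, and the medians are 6.89 inside genes and 8.18 between them.

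The highest scores stood at single sites in genes of unrelated function. The first, 245 bp wide, scored 69.1 in a, the agouti pigmentation gene (chr2:155027091-155027335), 17.1 kb from the nearest gene end. The next, 249 bp wide and scored 50.8, lay in the overlapping models of Schip1 and Iqschfp (chr3:68543086-68543334). Cd276, an immune checkpoint ligand, had 48.4 (chr9:58544998-58545294), and Ttll7, a tubulin polyglutamylase, had 46.5 (chr3:146945967-146946206), 48.1 kb from the next peak. Gucy2g, a receptor guanylyl cyclase, had 44.6 at 34.4 kb from the next peak, Albfm1 had 39.9 and Lpo, the gene of lactoperoxidase, had 38.9. Akap6, an anchoring protein for protein kinase A, had 38.8 on a peak of 290 bp, 113 kb from the next one. Kcnh6, a potassium channel of the ERG family, and Dclk1, a doublecortin-like kinase, both had 37.3. Of these 10 peaks, 6 lay in genes with a peak at an end. The other 4 lay in Schip1 with Iqschfp, Gucy2g, Albfm1 and Lpo, and in the last 3 the isolated peak was the only peak of the model.

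The distances to gene ends and to other peaks, which the choice of members fixed to over 1 kb, are given as a description. Their median was 11.2 kb from the nearest gene end and 18.2 kb from the next peak. The next peak was more than 10 kb away for 713 of them (65.4%) and more than 100 kb away for 104 (9.53%). They were spread over 1000 of 21887 protein-coding genes (4.57%, exact interval 4.30 to 4.85%). A single one was held by 898 genes, 2 by 87 genes, 3 by 11 and 4 by 4, and 15 of the peaks lay in more than 1 protein-coding model. Whether a peak lay in an exon or an intron was not analysed here, since the gene table gives only the outer limits of each model.

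The genes with the most isolated peaks were Ptk7, Pakap, Akap6 and Pde4d. Ptk7, a receptor of planar cell polarity signalling, held 4 within 61835 bp of interior, with scores of 9.63, 12.7, 6.16 and 5.995 and widths of 188, 218, 231 and 295 bp. Its only other peak was one of 1689 bp. Akap6 held 4 with scores of 7.32, 17.4, 38.8 and 5.17 among 11 peaks of its model. Pde4d, a cyclic AMP phosphodiesterase gene with many start sites, held 4 with scores of 8.88, 5.29, 10.6 and 12.9 among 16 peaks. Pakap, a second gene for an anchoring protein of protein kinase A, held 4 with scores of 9.32, 3.99, 6.28 and 6.67. Genes with 3 included Unc13a, Tshz1, Mtus1, Mcu, Nfib and Chd9.

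Per unit of interior the densest genes with at least 3 isolated peaks were Unc13a, Ptk7, Tshz1, Mtus1 and Mcu. Unc13a, which encodes the vesicle priming factor Munc13-1, held 3 at 77.1 per Mb, with scores of 6.09, 4.16 and 6.16, between a peak of 1175 bp and one of 1543 bp. Ptk7 followed with 64.7 per Mb, then Tshz1, a zinc finger regulator, with 44.9, Mtus1 with 23.7 and Mcu, the mitochondrial calcium uniporter, with 18.7. In Tshz1 a peak 294 bp wide, scored 36.6, lay 24.5 kb from the next peak, and the other two, of 153 bp each, had scores of 3.99 and 6.28. Nfib, a nuclear factor I gene, held 3 with scores of 6.16, 8.23 and 10.6 beside a peak of 5958 bp at its end. At the other extreme, the largest gene interiors without an isolated peak were those of Ptprd (2.23 Mb), Lrp1b (2.04 Mb), Csmd1 (1.62 Mb), Nrxn3 (1.60 Mb) and Fhit (1.59 Mb), which held 1 to 3 peaks in all.

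Density was counted as isolated peaks per Mb of gene interior. The interior is the part of the protein-coding models in which such a peak could lie, more than 1 kb from every gene end and from every peak of at least 300 bp. Over 942 Mb of interior the density was 1.16 per Mb (exact Poisson 95% interval 1.09 to 1.23). Under the same width and isolation conditions 849 peaks lay between genes, at 0.613 per Mb (0.572 to 0.655) over 1386 Mb, which may contain assembly gaps. The ratio was 1.89, and it was smaller among stronger peaks. At scores of at least 10 the densities were 0.249 (0.219 to 0.283) inside and 0.208 (0.184 to 0.233) between genes, and at scores of at least 20 they were 0.0541 (0.0403 to 0.0712) and 0.0570 (0.0451 to 0.0710). At both limits the intervals overlapped. Where peaks with scores under 10 were removed before isolation was judged, they did not, with 0.317 (0.282 to 0.355) inside and 0.234 (0.210 to 0.261) between genes. Of the peaks between genes 33.9% had a score of at least 10, against 21.5% inside.

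Isolated narrow peaks were densest near wide peaks. Inside genes, the density was 3.92 per Mb (2.84 to 5.28) at 1 to 2 kb from the nearest peak of at least 1000 bp, 2.93 (2.38 to 3.56) at 2 to 5 kb and 1.99 (1.63 to 2.41) at 5 to 10 kb. It was 1.39 (1.23 to 1.57) at 20 to 50 kb and 0.587 (0.514 to 0.668) beyond 100 kb. The median distance to a peak of at least 1000 bp was 34.6 kb, and 232 of the members lay beyond 100 kb from one. Between genes the density at 1 to 2 kb was 1.28 (0.516 to 2.64), and it was 2.24 (1.85 to 2.70) at 10 to 20 kb and 0.264 (0.233 to 0.297) beyond 100 kb. The intervals inside and between genes overlapped at every step from 2 to 100 kb. The inside of genes was denser at 1 to 2 kb and beyond 100 kb, without overlap.

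The members with scores of at least 10 showed a flatter profile near wide peaks. Their density inside genes was 0.365 per Mb (0.0994 to 0.934) at 1 to 2 kb, 0.469 (0.268 to 0.761) at 2 to 5 kb, 0.369 (0.256 to 0.516) at 10 to 20 kb and 0.346 (0.267 to 0.442) at 20 to 50 kb, with overlapping intervals. Beyond 100 kb it was 0.127 (0.0939 to 0.167). Between genes the stronger peaks were denser at 10 to 20 kb, with 0.846 (0.613 to 1.14), which did not overlap the value inside. Most of the rise near wide peaks inside genes was thus made of members with scores under 10.

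**Figure D2:**
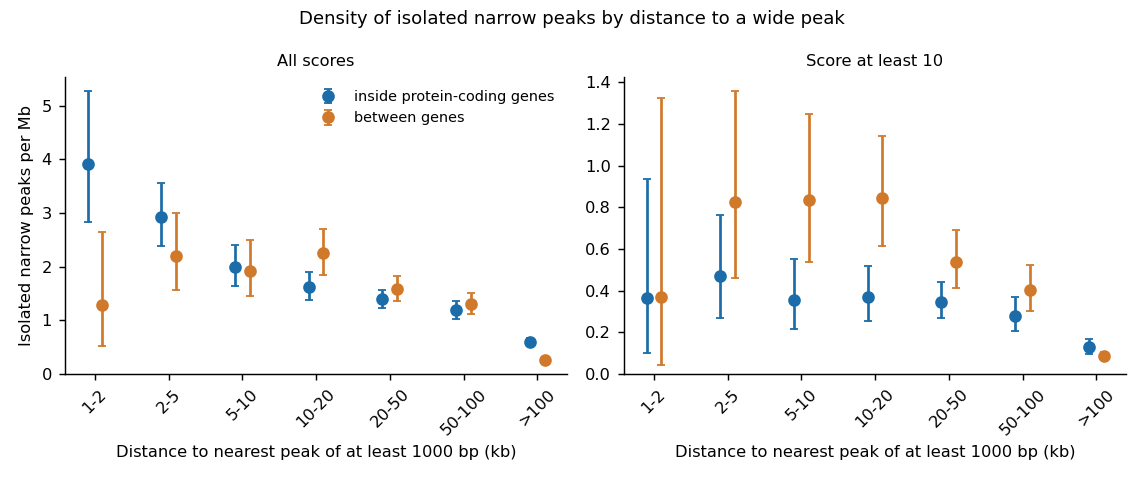
Isolated narrow peaks per Mb of available space (points, with exact Poisson 95% intervals) by distance to the nearest peak of at least 1000 bp, inside protein-coding genes (blue) and between genes (orange), for all scores (left) and scores of at least 10 (right; the vertical scales differ). Inside genes the left panel falls from 3.92 at 1 to 2 kb to 0.587 beyond 100 kb, and the right panel is level up to 50 kb.

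The 5′ side of genes held more isolated peaks than the 3′ side. This used 709 members in 12127 genes whose strand was known and whose model overlapped no other protein-coding model. The 5′ side, up to the middle of the model, had 1.32 per Mb (395 peaks, 1.20 to 1.46) and the 3′ side 1.01 (314 peaks, 0.906 to 1.13). At 2 to 5 kb from the 5′ end the density was 2.51 (1.96 to 3.17), against 1.30 (0.933 to 1.76) at the same distance from the 3′ end. At 5 to 10 kb the values were 1.52 (1.18 to 1.93) and 1.45 (1.12 to 1.84), and beyond 200 kb they were 0.692 (0.558 to 0.848) and 0.718 (0.581 to 0.877). Beyond 5 kb the intervals of both ends overlapped at every distance, as they did at 1 to 2 kb, where 14 and 15 peaks lay. For scores of at least 10 the intervals of both ends overlapped at 2 to 5 kb, with 0.460 (0.245 to 0.787) from the 5′ end and 0.254 (0.110 to 0.500) from the 3′ end. At 10 to 20 kb these stronger peaks ran the other way, with 0.280 (0.171 to 0.432) and 0.516 (0.362 to 0.715), and the intervals overlapped there too. The part of distance to a wide peak in this difference was not tested.

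**Figure D3:**
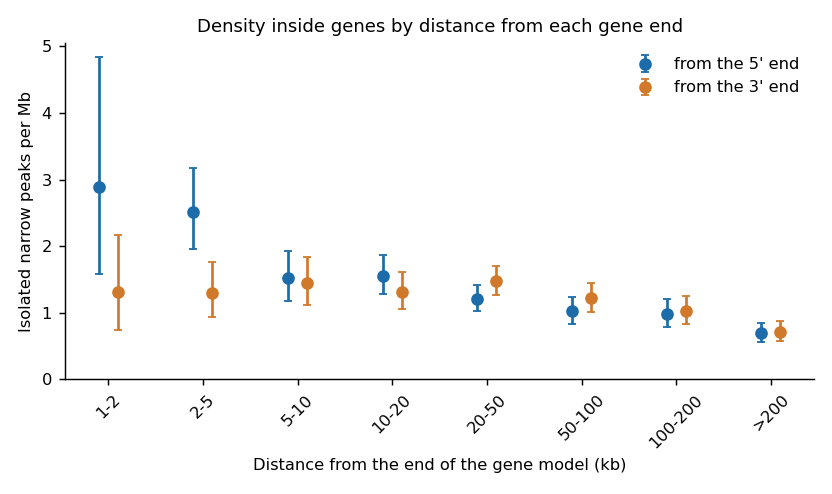
Isolated narrow peaks per Mb of gene interior (points, with exact Poisson 95% intervals) by distance from the 5′ end (blue) and from the 3′ end (orange) of the gene model, in 12127 genes. The 5′ values start at 2.88 and 2.51 in the first distances, where the 3′ values are 1.32 and 1.30, and the series run together from 5 kb onwards.

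Genes with and without a peak at an end differed little in the density of all isolated peaks, and in the opposite order in that of the stronger ones. Of the 1000 host genes, 760 (76.0%) had a peak within 1 kb of an end, against 66.6% of all genes with an interior. This share rose with gene size, from 56.8% of genes with up to 10 kb of interior to 78.0% of those above 300 kb. Host genes were larger, with a median model of 91.1 kb against 22.5 kb. The part of gene size in the difference was not tested. The density was 1.19 per Mb (1.11 to 1.27) in genes with a peak at an end and 1.06 (0.933 to 1.20) in genes without one. With isolation by 500 bp these were 1.499 (1.41 to 1.59) and 1.15 (1.02 to 1.30), without overlap. For members with a score of at least 10 the order was the other way, with intervals that did not overlap, 0.221 (157 peaks, 0.187 to 0.258) and 0.346 (81 peaks, 0.275 to 0.431). A peak in overlapping models can count on both sides. At a score of at least 20 the densities were 0.0436 (0.0296 to 0.0618) and 0.0855 (0.0523 to 0.132), with overlapping intervals. The share of members in a gene with a peak at an end was 82.3% at scores under 5, 79.9% from 5 to 10, 68.5% from 10 to 20 and 60.8% from 20 upwards. Over all scores, the intervals of genes with and without a peak at an end overlapped in each of 5 groups of interior size.

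In 124 host genes (12.4%) the isolated peaks were the only peaks, inside the model and at its ends. Those with the highest scores were Gucy2g (44.6), Albfm1 (39.9), Lpo (38.9), Cldn14 (37.1), a tight junction claudin, Trpv3 (34.4), a heat-gated cation channel of keratinocytes, and Zdhhc19 (33.1), a palmitoyltransferase. Further ones, named after their values were seen, were Robo3 (25.1), an axon guidance receptor, and Chrna1 (24.5), the alpha subunit of the muscle acetylcholine receptor.

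Larger genes held isolated peaks more often but less densely. The share of genes with one was 1.15% at up to 10 kb of interior, 3.17% at 10 to 30 kb, 6.74% at 30 to 100 kb, 18.3% at 100 to 300 kb and 25.6% above 300 kb. Over the same steps the density fell by group from 2.67 per Mb (2.09 to 3.36) through 1.80, 1.32 and 1.26 to 0.591 (0.507 to 0.685). The median model length was 91.1 kb among host genes and 22.5 kb among all genes with an interior. Any share of a gene list therefore has to be read beside the size of its genes.

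Chromosome X carried few isolated narrow peaks. It held 15 over 42.4 Mb of interior, or 0.354 per Mb (0.198 to 0.584), against 1.20 (1.13 to 1.27) on the autosomes, a ratio of 3.39. Single autosomes ran from 0.885 per Mb on chromosome 1 (0.681 to 1.13) to 1.56 on chromosome 11 (1.23 to 1.95), all above the upper bound of X. The same low value stood between genes on X, with 0.160 per Mb (0.0946 to 0.252) against 0.700 (0.654 to 0.750). Peaks of at least 300 bp inside genes were also sparser on X, with 2.53 per Mb (2.08 to 3.05) against 4.56 (4.42 to 4.70), a smaller gap. The 15 included Nlgn3, the synaptic adhesion protein neuroligin 3 (153 bp, score 5.17), and Dmd, the dystrophin gene (296 bp, 4.85). The sex of the animals is not given in the labels.

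**Figure D4:**
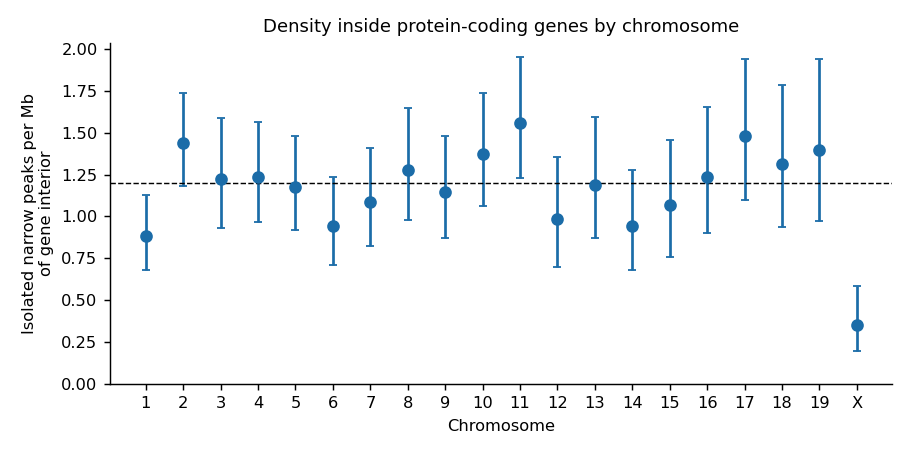
Isolated narrow peaks per Mb of gene interior on each autosome and on X (points, with exact Poisson 95% intervals); the dashed line is the value of all autosomes, 1.20. X, at 0.354, is the only chromosome shown whose interval lies wholly below every autosomal point.

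Among the genes of nitric oxide signalling and of enteric neuron identity 3 held an isolated peak, and the intervals of their densities spanned the 1.16 per Mb of all genes. Of 16 nitrergic genes 1 held any (6.25%, exact interval 0.158 to 30.2%, against 4.57% of all genes), at 0.801 per Mb (0.0970 to 2.89). This was Prkg1, the cyclic GMP-dependent kinase that acts downstream of nitric oxide, with a peak of 153 bp and a score of 5.07 (chr19:31661023-31661175) and one of 164 bp and 8.38 (chr19:31756115-31756278). The next peak lay 1.36 kb from the first and 1.24 kb from the second, just outside the isolation limit. The 183 bp peak in Nos1, with a score of 13.0, had its next peak 37.7 kb away and missed only the gene-end condition. It lay inside the model, 613 bp from the end of a non-coding gene model that overlaps Nos1. The narrow peak of Adcyap1, the gene of the neuropeptide PACAP, lay 28 bp from a gene end. Of 24 enteric neuron regulators 2 held one (8.33%, 1.03 to 27.0%), at 0.969 per Mb (0.117 to 3.501). They were the zinc finger gene Casz1 (298 bp, score 8.88, 39.0 kb from the next peak) and the homeobox gene Meis2 (161 bp, 3.33). Narrow peaks did lie inside Ret, Phox2a, Meis1, Tbx2, Tbx3, Etv1, Ednrb and Zeb2, but each had a neighbour within 1 kb. With isolation by 500 bp, 5 of the 24 regulators held one, and across the alternatives the nitrergic count ran from 0 to 2.

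The pan-neuronal and synaptic vesicle lists had densities of 1.29 and 1.21 per Mb, near the 1.16 of all genes. Of 21 pan-neuronal genes 3 held an isolated peak (14.3%, 3.05 to 36.3%), against 4.57% of all genes. The median interior of this list was 65.9 kb, and 6.74% of all genes with 30 to 100 kb of interior held one. Mapt, the gene of tau, had one of 163 bp with a score of 8.61, 40.6 kb from the next peak. No peak lay within 1 kb of either end of its model. Further inside, Mapt held narrow peaks of 199, 256 and 153 bp, at 3902, 4312 and 4973 bp from the nearest gene end. Each had a neighbour within 1 kb and so was not a member. Elavl4, which encodes HuD, had one of 267 bp and 6.67, and Scg2, secretogranin II, had one of 153 bp and 5.29. Of 29 synaptic vesicle genes 5 did (17.2%, 5.85 to 35.8%). They were Unc13a with 3, Sv2b (score 10.6, with the next peak 189.7 kb away), Unc13b (8.38), Syt4 (7.26) and Unc13c (5.17), which had no peak at an end and the next one 854 kb away. So 3 of the 5 encode Munc13 priming factors, a count noticed after the values were seen. How many of the 29 genes encode such factors is not given here. The median interior of the 29 was 101 kb, and 18.3% of all genes with 100 to 300 kb of interior held an isolated peak.

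The large genes of adhesion and excitability held isolated peaks at low density. Of 56 neuronal adhesion genes 13 held 19 of them (23.2%, 13.0 to 36.4%), at 0.345 per Mb (0.208 to 0.538), and their median interior was 1015 kb. All protein-coding genes above 300 kb had 25.6% and 0.591 per Mb. Tenm2, a teneurin of synaptic partner matching, had one 292 bp wide, scored 33.9. Lsamp, a cell adhesion protein of the limbic system, had 2 with scores of 21.8 and 4.23, the first 307 kb from the nearest gene end. Cntnap2, the Caspr2 protein of the axon, had 17.4, and Erbb4, the neuregulin receptor, had 16.6 with the next peak 648 kb away. Of 35 axon guidance genes 8 held one (22.9%, 10.4 to 40.1%), at 0.752 per Mb with an interval of 0.344 to 1.43 that spans the value of all genes. They were led by Robo3 (25.1), the netrin receptor Unc5b (8.18), Plxnc1 (7.32 and 4.33) and Sema3d (6.28). The median interior of the axon guidance genes was 199 kb, and 18.3% of all genes with 100 to 300 kb of interior held one.

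Of 43 voltage-gated channel genes 6 held one (14.0%, 5.30 to 27.9%, 0.490 per Mb). Kcnq5, an M-current potassium channel, had 11.8, the L-type calcium channel gene Cacna1d 11.7, the A-type potassium channel gene Kcnd3 8.10 and the calcium channel subunit gene Cacnb4 7.32. Of 53 transmitter receptor genes 5 did (9.43%, 3.13 to 20.7%, 0.389 per Mb). Gabbr2, a subunit of the GABA-B receptor, stood highest with 22.0, and the glutamate receptor genes Grid1 and Grik3 had 3.87 and 3.26. Both lists had median interiors over 100 kb, at 240 and 134 kb. Their densities had upper bounds (1.07 and 0.908) below the 1.16 of all genes. Of all genes with 100 to 300 kb of interior 18.3% held an isolated peak, at 1.26 per Mb (1.13 to 1.41). Genes above 300 kb had 0.591 per Mb, inside the intervals of both lists (0.180 to 1.07 and 0.126 to 0.908). The density of a list is pooled over bases, so its largest genes weigh most and the median interior does not match it in size. The share over all genes was 4.57%.

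Lists of other cells held 0 or 1 gene with an isolated peak each, shares whose intervals all span the 4.57% of all genes. Of 24 genes of other enteric neuron classes 0 held an isolated peak (exact interval 0 to 14.2%), and likewise 0 of 15 interstitial and fibroblast genes and 0 of 15 endothelial genes (0 to 21.8% each). There was 1 each among 15 glial genes, 15 smooth muscle genes (Smtn, smoothelin, 5.18), 20 epithelial genes (Hnf4a, 5.995, 62.3 kb from the next peak) and 17 leukocyte genes (Ptprc, the CD45 antigen, 4.22). Hnf4a and Ptprc had no peak at an end. The densities in these 4 lists were 2.70 (0.0685 to 15.1), 1.18 (0.0298 to 6.55), 2.11 (0.0534 to 11.7) and 1.77 per Mb (0.0449 to 9.89), each from a single peak. With isolation by 500 bp the smooth muscle count was 5 of 15. Over all 395 listed genes 47 held one (11.9%, 8.88 to 15.5%), with a median interior of 92.4 kb against 13.5 kb in all genes, while their density of 0.518 per Mb (0.392 to 0.671) was below that of all genes. That density is pooled over 110 Mb of interior, of which the 56 neuronal adhesion genes hold 55.1 Mb. All genes above 300 kb of interior had 0.591 per Mb. The part of gene size in the lower density was not tested.

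**Figure D5:**
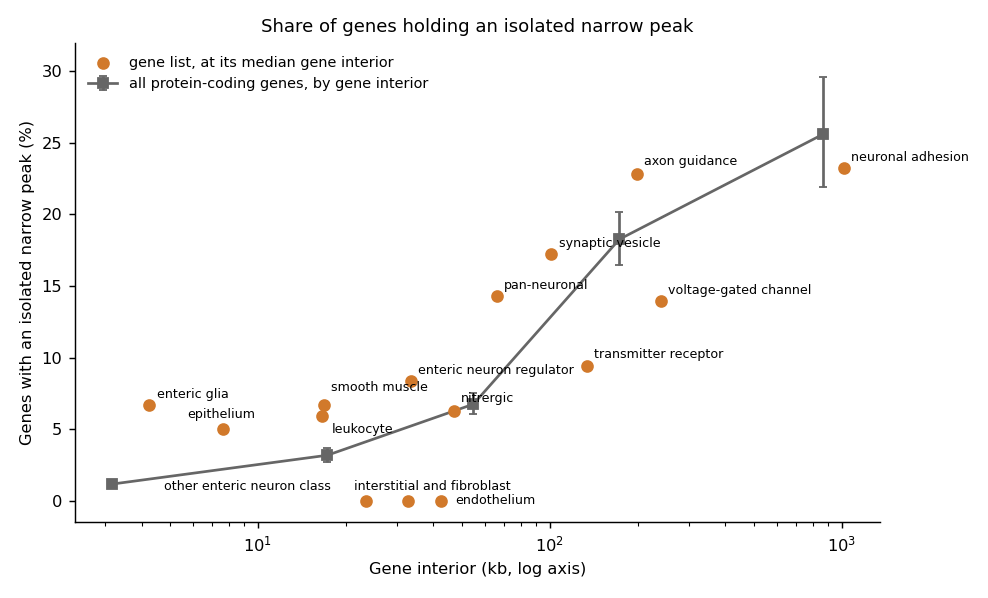
Percent of genes that hold at least 1 isolated narrow peak against gene interior (kb, log axis): grey squares are all protein-coding genes in 5 size groups, placed near the middle of each, with exact 95% intervals, and orange points are the 15 gene lists at their median interior. The grey line climbs from 1.15% to 25.6% with size, and the list of neuronal adhesion genes, at 23.2%, lies beside the last group.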

How the data were processed

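Peaks came from 1 H3K4me3 library; the input library had no file here. Per the file headers, the authors called the peaks with MACS2 from paired-end reads. Per the submitters' processing notes, BWA, Picard, MACS2 and build mm10 were used, with no roles or versions named. No threshold for calling a peak is stated there. The score in the authors' deposited list has no stated scale and was used only to describe, rank and filter peaks. Depth is unknown.

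Starts were shifted to count from 1. Gene models, without exons, were RefSeq's on GRCm38.p6 (21887 protein-coding genes on 21 chromosomes). Strand and start sites came from RefSeq promoter windows, which covered 17492 of these genes and 764 of the 1000 host genes. Densities exclude 1 kb around gene ends and around peaks of at least 300 bp. Shares have exact Clopper-Pearson and densities exact Poisson 95% intervals; peaks are not independent replicates. No genome sequence was used, so peak sequences outside promoter windows are not shown. The code (Python 3.11.15, pandas 2.3.3, SciPy 1.17.1) was tested on simulated peaks.

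The members and the 15 lists (395 symbols) were chosen with earlier results of these data known. Genes were named by rule: the 10 highest scores, the 10 genes with most members, the 5 densest with at least 3, the 5 largest interiors with none, members in the neuronal identity and nitrergic lists, up to 4 per other list, and the 3 peaks on each side of each limit. A few genes that this rule names are not reported here.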

Additional observations from a re-analysis of the deposited data

How the results depend on the processing

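No paired analysis was possible because each group had 1 library and no test was made. Of 10 alternatives, the limit of a score of at least 10 was chosen after seeing the data. The alternative that asked for the whole peak to lie inside the model could not change any value, because members lie over 1 kb from every gene end. It is counted among the 10 below but adds no information. The density was lower on X than on the autosomes in all 10. It was higher inside than between genes in 9, the exception being the higher-scored 50% of peaks (0.0148 and 0.0158 per Mb), and higher in genes with a peak at an end in 8, the exceptions being that set (0.0105 and 0.0211) and scores of at least 10 (0.281 and 0.420). Peaks were removed before isolation was judged, so these counts differ from those of members filtered by score.

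In the 50% with the higher scores 14 members were left (0.0935% of peaks, 0.0685% of genes, 0% of listed genes), with 0 on X, 0.0155 per Mb on autosomes, a median score of 39.3 and width of 243 bp. At scores of at least 10 there were 299 (1.40% of peaks, 1.43% of genes, 4.05% of listed genes), at 0.317 per Mb inside and 0.234 between genes without overlap of their intervals, 0.0943 on X and 0.328 on autosomes, with a median score of 13.1 and width of 227 bp. At scores of at least 5 the values were 3.34% of peaks, 3.95% of genes, 0.980 per Mb inside, 0.536 between genes, 0.987 in genes with a peak at an end and 1.01 on autosomes, with a median score of 7.63 and width of 200 bp. With width under 250 bp they were 2.99% of peaks, 3.797% of genes, 8.61% of listed genes, 0.950 inside, 0.496 between genes, 0.986 and 0.843 in genes with and without a peak at an end, 0.983 on autosomes and a median of 183.5 bp. Under 400 bp they were 4.66%, 5.61%, 15.9%, 1.48, 0.809, 1.51 and 1.39, 1.53 and 217 bp, with a median score of 7.26. More than 500 bp from gene ends gave 3.88% of peaks and 4.96% of genes, and more than 2500 bp gave 3.25% and 4.03%. Isolation by 500 bp gave 4.49% of peaks, 5.51% of genes, 1.41 per Mb inside, 1.499 in genes with a peak at an end (1.15 without, and the intervals no longer overlapped), 1.46 on autosomes and a median score of 6.36. Isolation by 5 kb gave 2.83%, 3.63%, 0.967, 0.977 and 1.005, and 0.539 between genes. Fewer or more peaks passed under these settings, and the part of that in the shifts was not tested. The other 53 of 120 values stayed inside the interval of the main value or within 1.5 times the main count. They include the values of the whole-peak alternative, which equal the main values by construction. Of 150 counts of genes in single lists, 49 moved by more than 1.5 times, most of them counts of a few genes: with isolation by 500 bp, for example, enteric neuron regulators went from 2 to 5 and smooth muscle genes from 1 to 5.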

Other observations

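Some hosts with 2 isolated peaks had no other peak in the model or at its ends, and they were picked out after their values were seen. Npas4, a transcription factor gene induced by neuronal activity, held one of 235 bp with a score of 9.32 and one of 175 bp with 6.86, in a model of 19087 bp. Jhy held the peak of 283 bp on its annotated start and a second one of 240 bp with a score of 4.33. Pstpip1, a cytoskeletal adaptor of blood cells, held one of 207 bp with a score of 25.6 and one of 197 bp with 6.36. Atp6v0a4, a subunit of the vacuolar proton pump, held a pair with scores of 3.69 and 3.11. Unlike these, St6galnac6, a sialyltransferase gene, held other peaks as well. Its pair, with scores of 36.6 and 29.3, lay among 4 peaks of the model, the widest of 2550 bp, and it had no peak at an end.

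Further genes with a pair of isolated peaks were also picked after their values were seen. Foxp2, a forkhead gene, held one of 188 bp with a score of 9.48, 184 kb from the nearest gene end, and one of 209 bp with 8.38. Runx2, the osteoblast regulator, held a pair of 205 and 199 bp with scores of 6.28 and 5.17. Gnas, the imprinted gene of the stimulatory G protein alpha subunit, held a pair with scores of 3.99 and 4.87.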
